A study of Rattus norvegicus with 3 samples.

Results

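The genes described here are 10 listed genes of the retinal pigment epithelium and of the melanosome, followed in rat retina after raised eye pressure. They are Rpe65, Lrat, Rdh5, Rgr, Best1, Ttr, Tyrp1, Dct, Pmel and Mlana, taken by gene symbol from tables of 32883 genes. Of the 10, 9 were matched, each to 1 row, and Dct was not analysed here. The animals were Sprague-Dawley rats at postnatal day 60, and 3 retinal RNA libraries were sequenced, 1 for each group. The HIOP_GSK and HIOP libraries came from retina taken 12 h after an intraocular pressure of 110 mmHg had been kept up for 60 min. In HIOP_GSK a drug named only as GSK had been given into the anterior chamber 24 h before that, and in HIOP it had not. The CTL library is labelled as without treatment, whereas the protocol gives sham surgery (needle inserted at 2.66 kPa) as the comparison group, and which of these holds for CTL was not settled. All groups share the strain and age, none is labelled as vehicle injected, and the sources used here do not give the number of animals per library.

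The retinal pigment epithelium is a single cell layer behind the photoreceptors. It turns spent retinoid back into the cis form that opsins bind, through the enzymes Lrat, Rpe65 and Rdh5, a route known as the visual cycle. Its cells, like the melanocytes of the choroid, also build melanosomes, organelles in which tyrosinase and its relatives make melanin on a fibrous scaffold. Sprague-Dawley rats are albino through a defect of tyrosinase, so melanin is lacking while the epithelium and its melanosome genes are still there. The epithelium is not part of the neural retina, and a dissected retina carries a varying amount of it. In bulk RNA, fewer cells of a type and less RNA per cell cannot be told apart.

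To show the regulatory sequence beside the expression values, the RefSeq promoter windows (250 bases before to 50 after the start site, build GRCr8) are printed for 4 genes: Rpe65 and Lrat, low in HIOP and intermediate in HIOP_GSK, and Tyrp1 and Pmel, the most abundant melanosome genes, which parted in HIOP_GSK. Capitals mark CATGTG, the core of the M-box bound by the pigment cell factor MITF, and TAATCC, the core bound by OTX2 and CRX, either as written or as the reverse complements CACATG and GGATTA.
Rpe65 (GRCr8 chr2:251425118-251425417, plus strand): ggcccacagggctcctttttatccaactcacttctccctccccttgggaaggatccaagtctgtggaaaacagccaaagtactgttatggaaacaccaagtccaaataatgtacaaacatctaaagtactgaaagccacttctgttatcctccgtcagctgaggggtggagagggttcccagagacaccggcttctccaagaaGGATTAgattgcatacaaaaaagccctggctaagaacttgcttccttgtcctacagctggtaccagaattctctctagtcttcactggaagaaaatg
Lrat (GRCr8 chr2:170571163-170571462, minus strand): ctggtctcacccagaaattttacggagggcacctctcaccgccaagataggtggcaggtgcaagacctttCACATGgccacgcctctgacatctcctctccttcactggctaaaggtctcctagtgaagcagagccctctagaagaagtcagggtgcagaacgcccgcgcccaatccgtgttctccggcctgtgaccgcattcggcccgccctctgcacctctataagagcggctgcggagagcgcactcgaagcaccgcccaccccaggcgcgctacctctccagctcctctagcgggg
Tyrp1 (GRCr8 chr5:100326875-100327174, plus strand): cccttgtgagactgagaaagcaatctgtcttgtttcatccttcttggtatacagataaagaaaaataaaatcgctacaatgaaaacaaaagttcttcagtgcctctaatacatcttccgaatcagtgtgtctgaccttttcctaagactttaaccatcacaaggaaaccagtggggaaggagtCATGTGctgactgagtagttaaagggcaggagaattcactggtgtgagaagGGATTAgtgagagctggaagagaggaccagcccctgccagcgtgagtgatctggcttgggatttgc
Pmel (GRCr8 chr7:1722993-1723292, plus strand): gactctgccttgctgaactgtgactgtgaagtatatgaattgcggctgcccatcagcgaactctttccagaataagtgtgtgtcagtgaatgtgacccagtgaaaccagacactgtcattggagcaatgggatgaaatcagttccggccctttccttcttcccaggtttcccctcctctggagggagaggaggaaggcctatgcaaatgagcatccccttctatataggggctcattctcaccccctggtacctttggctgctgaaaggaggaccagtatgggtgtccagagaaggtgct
In the Tyrp1 window CATGTG began 67 bases before the start site and GGATTA 16 bases before it. The Rpe65 window held GGATTA 47 bases before the start, the Lrat window held CACATG 180 bases before it, and the Pmel window held neither motif. All 10 listed genes had a window in the table. CATGTG, on either strand, lay in 6 of these 10 windows (Best1, Mlana, Lrat, Tyrp1, Dct and Rgr) and in 14% of all 33469 windows. TAATCC lay in 4 of 10 (Rpe65, Tyrp1, Dct and Rgr) and in 7.17% of all windows, and CACGTG, the E-box core, lay in 0 of 10 and in 6.42% of all. No match of 1 motif overlapped a match of another in these windows, and a match describes letters only.

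The libraries held 15132754 counts in HIOP_GSK, 17221510 in HIOP and 16090064 in CTL. Values below are counts or CPM, which is counts relative to 1e+06 counts of the library after TMM scaling. Intervals are exact 95% Clopper-Pearson intervals, which cover counting error only. Genes are called at least 2-fold higher or lower from log2 CPM computed with a prior count of 2. With 1 library per group there are no replicates behind any difference, and p-values are not given. The filter, a CPM of 1 or more in any library, was passed by 15543 genes and by 8 of the 9 matched members, all except Best1, and those 8 were above 1 CPM in every library. Together the 9 genes took 7455 counts (490.2 CPM) in HIOP_GSK, 7434 counts (434.0 CPM) in HIOP and 12630 counts (784.6 CPM) in CTL. Rod markers, 8 of 8 matched and none at 0, summed to 15592 CPM in HIOP_GSK, 22954 CPM in HIOP and 25021 CPM in CTL.

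In HIOP, 6 of the 8 compared genes were at least 2-fold lower than in CTL and none was at least 2-fold higher. For comparison, 8.06% of all 15543 genes were called lower and 8.99% were called higher. The members were chosen with earlier results of these data known, so setting them beside all genes is not a test. The median log2 ratio of the 8 genes was -1.20, beside 0.00 for all genes. All 4 visual cycle genes were past the limit, as were Ttr and Mlana, while Tyrp1 and Pmel were lower by less than 2-fold. In HIOP_GSK over HIOP, 7 of the 8 had a ratio above 1, but only Mlana reached 2-fold (0 of 8 with a prior count of 10) and Pmel had a ratio below 1. Over all genes, 4.56% were called higher and 1.69% were called lower in that comparison. The median log2 ratio of the 8 genes was 0.53 there. In HIOP_GSK over CTL, Rpe65 and Rgr were at least 2-fold lower and none was at least 2-fold higher, beside 6.32% and 10.5% of all genes, and the median of the 8 was -0.65. These comparisons share libraries, so their values are not independent of each other.

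**Figure D1:**
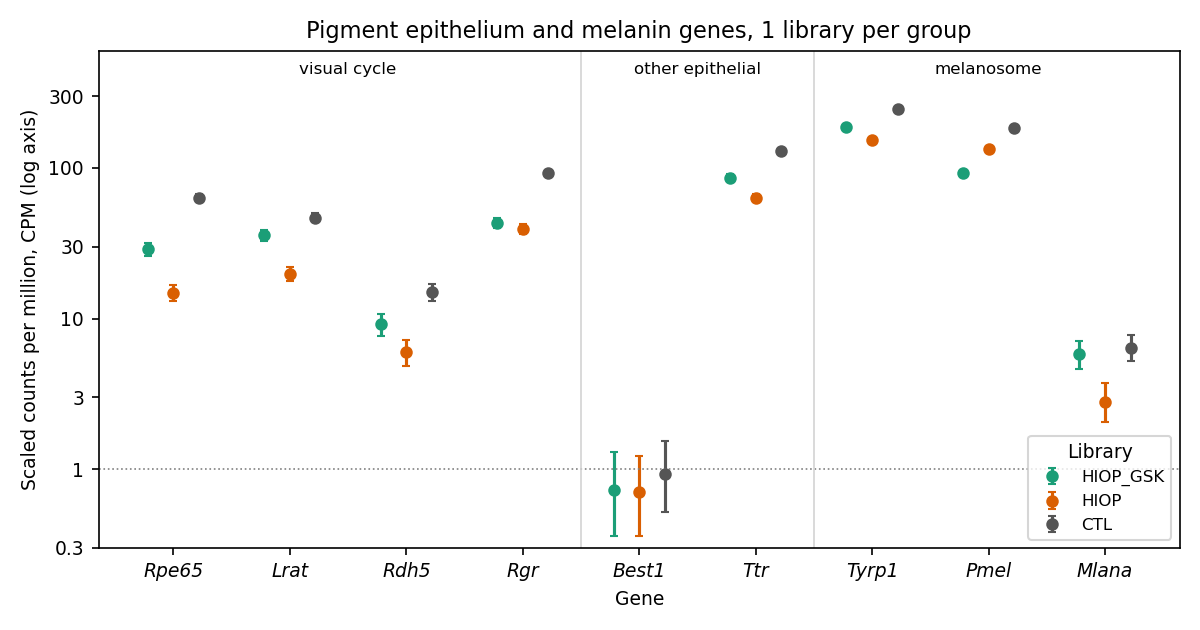
Scaled CPM (log axis) of the 9 matched genes in the HIOP_GSK, HIOP and CTL libraries. Points are single libraries, bars are exact 95% counting intervals, and the dotted line is the filter at 1 CPM. CTL is the highest library for all 9 genes, and HIOP_GSK lies above HIOP for all of them except Pmel, although the intervals of Best1 overlap widely.

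Rpe65, the isomerase that makes the cis retinoid of the visual cycle, had the lowest ratio of the members in HIOP over CTL. It had 438 counts (28.8 CPM, interval 26.2 to 31.6) in HIOP_GSK, 254 counts (14.8 CPM, 13.1 to 16.8) in HIOP and 1021 counts (63.4 CPM, 59.6 to 67.4) in CTL. The intervals of the 3 libraries did not overlap, and the share of all genes for which this holds was not computed. Rpe65 was 4.28-fold lower in HIOP than in CTL (3.72 to 4.93). In HIOP_GSK its ratio to HIOP was 1.94 (1.66 to 2.28), just inside the limit, and it was 2.20-fold lower than in CTL (1.97 to 2.47). With the deposited TPM (abundance scaled for transcript length) and a pseudocount of 0.5, its log2 ratio of HIOP_GSK over HIOP was 1.05, past the limit.

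Lrat, which esterifies retinol and so supplies the substrate of Rpe65, had 543 counts (35.7 CPM) in HIOP_GSK, 338 (19.7 CPM) in HIOP and 753 (46.8 CPM) in CTL. It was 2.37-fold lower in HIOP than in CTL (2.08 to 2.70), about the size of the differences of Rdh5 and Rgr. In HIOP_GSK it had a ratio of 1.81 to HIOP (1.58 to 2.08) and of 0.763 to CTL (0.682 to 0.854). Lrat thus stood closer to CTL in HIOP_GSK than Rpe65 did, with intervals that do not overlap. Among all gene pairs with summed counts in the members' range, 61.4% did not overlap in HIOP_GSK over CTL. Counts of Lrat per count of Rpe65 were 1.24 (1.09 to 1.41) in HIOP_GSK, 1.33 (1.13 to 1.57) in HIOP and 0.738 (0.670 to 0.811) in CTL, so its intervals overlapped in the injured libraries and lay above that of CTL.

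Rdh5, the dehydrogenase that oxidises the cis-retinol made by Rpe65, had 139, 102 and 241 counts in HIOP_GSK, HIOP and CTL. It was 2.51-fold lower in HIOP than in CTL (1.99 to 3.20), and its ratio of HIOP_GSK to HIOP was 1.53 (1.18 to 2.002). In the RefSeq table Rdh5 overlaps Cd63, whose counts ran the other way, with 4778 in HIOP_GSK, 4385 in HIOP and 941 in CTL. The sources used here do not give the strand setting of the counting, and the part of Cd63 reads in the Rdh5 count was not tested. The deposited TPM of Rdh5 was 3.94 in HIOP_GSK and 8.61 in CTL, a log2 ratio of -1.04 with a pseudocount of 0.5, whereas the counts gave -0.70.

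Rgr, an opsin-like protein of pigment epithelium and Müller glia that takes part in light-driven retinoid turnover, differed less between HIOP_GSK and HIOP than Rpe65 and Lrat did. It had 659 counts (43.3 CPM) in HIOP_GSK, 670 (39.1 CPM) in HIOP and 1487 (92.4 CPM) in CTL. The injured libraries had overlapping intervals, both below CTL. The ratio of HIOP_GSK to HIOP was 1.11, with an interval from 0.993 to 1.24, and HIOP was 2.36-fold lower than CTL (2.15 to 2.59). The interval of Rgr in HIOP_GSK over HIOP did not overlap those of Rpe65 or Lrat, but it overlapped that of Rdh5. Of all gene pairs with summed counts in the members' range, 29.8% did not overlap there. Müller glia markers, of which all 6 listed were matched and none was at 0, summed to 1640 CPM in HIOP_GSK, 1418 in HIOP and 2875 in CTL, most of it Glul. Of the 6, 4 were at least 2-fold lower in HIOP than in CTL (median log2 ratio -1.87), beside 8.06% of all genes. In HIOP_GSK over HIOP, 3 passed the limit upward (median 0.75), beside 4.56% of all genes. The part of these markers in the Rgr values was not tested.

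Ttr, transthyretin, carries retinol with its binding protein and thyroid hormone, and is made in the eye by pigment epithelium. It had 1309 counts (86.1 CPM) in HIOP_GSK, 1077 (62.9 CPM) in HIOP and 2082 (129 CPM) in CTL. It was 2.06-fold lower in HIOP than in CTL (1.91 to 2.22), and HIOP_GSK had a ratio of 1.37 to HIOP (1.26 to 1.49). Ttr was the most abundant of the 9 genes per transcript length, at 260.3 TPM in HIOP_GSK, 183 TPM in HIOP and 417 TPM in CTL. Best1, a chloride channel of the basolateral membrane of pigment epithelium, was near the limit of detection, with 11, 12 and 15 counts in HIOP_GSK, HIOP and CTL. Its HIOP to CTL ratio of 0.752 had an interval from 0.321 to 1.72, so a difference was not detectable at this depth.

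Among the melanosome genes, Tyrp1, a tyrosinase relative that acts late in melanin synthesis in the mouse, had the most counts. They were 2863 (188 CPM) in HIOP_GSK, 2628 (153 CPM) in HIOP and 3970 (247 CPM) in CTL. Tyrp1 was 1.61-fold lower in HIOP than in CTL (1.53 to 1.69), and its ratio of HIOP_GSK to HIOP was 1.23 (1.16 to 1.29). Its difference in HIOP over CTL was thus smaller than those of the 4 visual cycle genes, with intervals that did not overlap theirs. Among all gene pairs with summed counts in the members' range, 62.5% did not overlap in that comparison.

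Pmel, whose fragments form the fibrils on which melanin is laid down, had 1405 counts (92.4 CPM) in HIOP_GSK, 2305 (135 CPM) in HIOP and 2958 (184 CPM) in CTL. It was the only one of the 8 genes that was lowest in HIOP_GSK. Its HIOP to CTL ratio was 0.732 (0.693 to 0.774), its HIOP_GSK to HIOP ratio 0.687 (0.642 to 0.734), and its HIOP_GSK to CTL ratio 0.503 (0.472 to 0.536). The last of these lies on the limit, with a log2 ratio of -0.99 on counts and of -1.05 with the deposited TPM and a pseudocount of 0.5. In the RefSeq table Pmel overlaps Cdk2 and Dgka, which had far fewer counts. Cdk2 had 196, 173 and 143 counts in HIOP_GSK, HIOP and CTL, and Dgka had 163, 178 and 194. Lrat, Tyrp1, Best1 and Tyr each overlap uncharacterised loci or a pseudogene in that table, whose part in their counts was not tested, and Rpe65, Rgr, Ttr, Dct and Mlana overlap none.

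Mlana, a small membrane protein of melanosomes that associates with Pmel in human cells, had 88 counts (5.79 CPM) in HIOP_GSK, 48 (2.80 CPM) in HIOP and 103 (6.40 CPM) in CTL. It was 2.28-fold lower in HIOP than in CTL (1.61 to 3.29). HIOP_GSK had a ratio to HIOP of 2.06, with a wide interval of 1.44 to 3.00, and the call is lost with a prior count of 10 (log2 ratio 0.90). It had a ratio to CTL of 0.904 (0.673 to 1.21). Pmel and Mlana therefore differed from HIOP in opposite directions in HIOP_GSK. Counts of Mlana per count of Pmel were 0.0626 (0.0499 to 0.0777) in HIOP_GSK, 0.0208 (0.0153 to 0.0277) in HIOP and 0.0348 (0.0283 to 0.0424) in CTL, without overlap of the intervals. The intervals of their ratios between libraries did not overlap in any comparison. Among all gene pairs with summed counts in the members' range, 62.5% did not overlap in HIOP over CTL. The shares were 29.8% in HIOP_GSK over HIOP and 61.4% in HIOP_GSK over CTL.

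**Figure D2:**
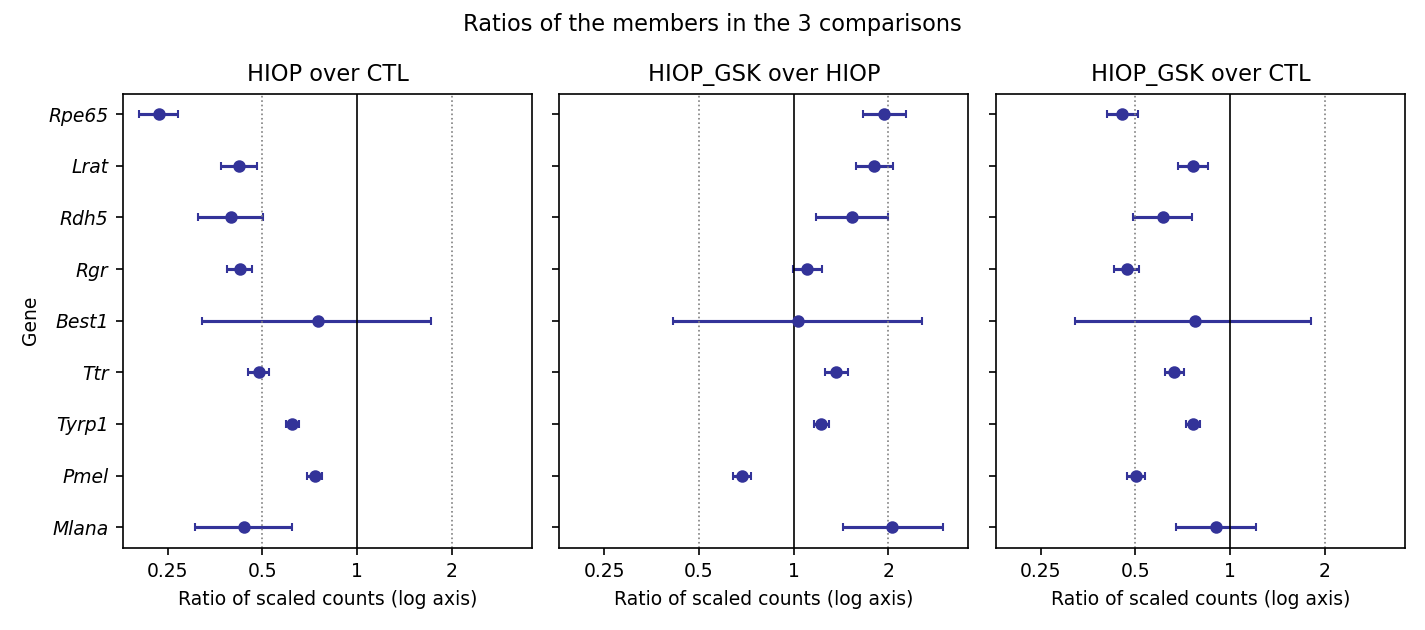
Ratios of scaled counts (log axis) of each matched gene in HIOP over CTL, HIOP_GSK over HIOP and HIOP_GSK over CTL, with exact 95% counting intervals. Solid lines mark a ratio of 1 and dotted lines ratios of 0.5 and 2. Rpe65 has the lowest ratio in HIOP over CTL, and Pmel is the only gene whose interval lies below 1 in HIOP_GSK over HIOP.

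The ratios of the 8 genes were compared with each other in pairs, which share genes and so are not independent. In HIOP over CTL their ratios spread 3.13-fold, between 0.234 for Rpe65 and 0.732 for Pmel, and the intervals of 17 of 28 gene pairs (60.7%) did not overlap. Among all pairs of 11067 genes with summed counts in the range of the members (239 to 9461), 62.5% did not overlap, so this share is near the background. In HIOP_GSK over HIOP the ratios spread 3.01-fold, between 0.687 for Pmel and 2.06 for Mlana, with 16 of 28 pairs (57.1%) apart, beside 29.8% over all pairs of those 11067 genes. Every pair that held Pmel was among those apart. In HIOP_GSK over CTL the spread was 1.99-fold and 13 of 28 pairs (46.4%) were apart, a smaller share than the 61.4% over all.

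The 4 visual cycle genes took 23.9% (interval 22.9 to 24.8) of the summed counts of the 9 genes in HIOP_GSK, 18.3% (17.5 to 19.2) in HIOP and 27.7% (26.9 to 28.5) in CTL. The 3 matched melanosome genes took 58.4% (57.3 to 59.6), 67.0% (65.9 to 68.1) and 55.7% (54.8 to 56.5) in the same libraries. HIOP therefore had the smallest visual cycle share and the largest melanosome share. Of the summed counts of all 9 genes, Pmel alone took 18.8% in HIOP_GSK, 31.0% in HIOP and 23.4% in CTL. Tyrp1 took 38.4% of the same sum in HIOP_GSK, 35.4% in HIOP and 31.4% in CTL. Counts of Pmel per count of Rpe65 were 3.21 (2.88 to 3.58) in HIOP_GSK, 9.07 (7.97 to 10.4) in HIOP and 2.90 (2.70 to 3.11) in CTL.

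**Figure D3:**
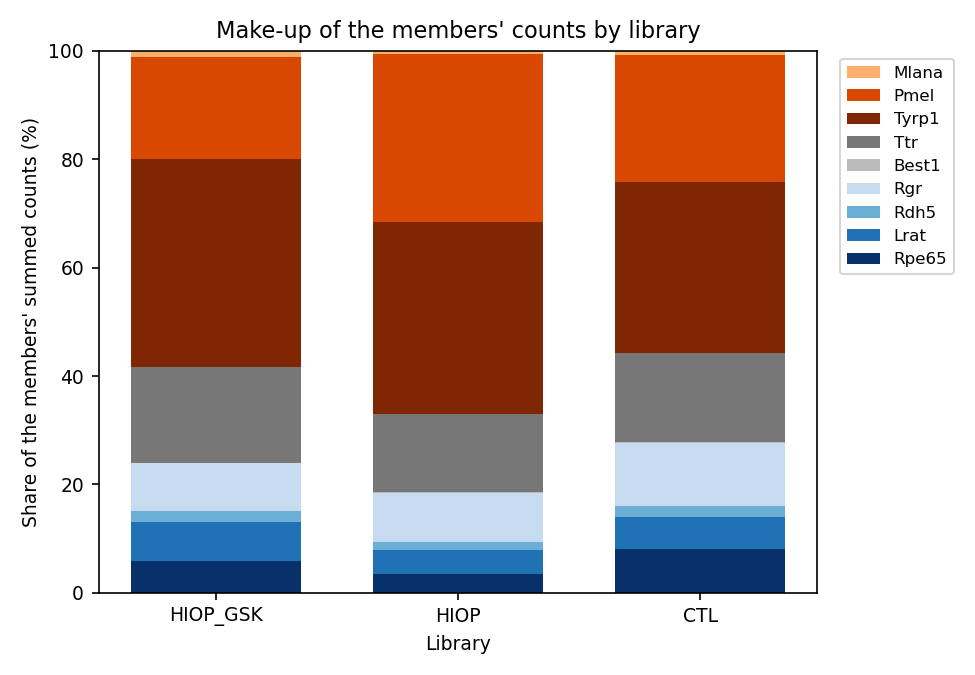
Share (%) of each gene in the summed counts of the 9 matched genes, in the HIOP_GSK, HIOP and CTL libraries. Blue bars are visual cycle genes, grey bars Best1 and Ttr, and orange to brown bars melanosome genes. The blue part is 18.3% in HIOP, against 23.9% in HIOP_GSK and 27.7% in CTL.

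Compared per transcript length with the deposited TPM, the order of the levels was almost the same in the 3 libraries. Ttr came first, followed by Tyrp1, Pmel and Rgr, and Mlana, Rdh5 and Best1 came last. Rpe65 and Lrat, in between, changed places, with 15.8 and 17.3 TPM in HIOP_GSK, 7.38 and 9.22 TPM in HIOP and 32.8 and 23.1 TPM in CTL. In HIOP, Tyrp1 at 79.5 TPM and Pmel at 78.7 TPM were neighbours of nearly equal level, whereas they stood at 102 and 56 TPM in HIOP_GSK and at 141 and 116 TPM in CTL.

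Tyr encodes tyrosinase, the first enzyme of melanin synthesis and the gene defective in albino rats, and its transcript was detected in all libraries. It had 212 counts in HIOP_GSK, 210 in HIOP and 675 in CTL, and was 3.42-fold lower in HIOP than in CTL (2.93 to 4.01). Its ratio of HIOP_GSK to HIOP was 1.14 (0.935 to 1.38). Counts of Tyr per count of its relative Tyrp1 were 0.0740 (0.0641 to 0.0852) in HIOP_GSK, 0.0799 (0.0691 to 0.0920) in HIOP and 0.170 (0.156 to 0.185) in CTL. Tyr was thus lower relative to Tyrp1 in the injured libraries. In the list of melanosome and melanocyte genes other than the members, 12 of 13 were matched. Over all genes, 8.06% were called lower and 8.99% higher in HIOP over CTL. Of the 12, 4 were at least 2-fold lower in HIOP than in CTL and none higher (median log2 ratio -0.61). Beside Tyr these were Oca2, Slc45a2 and Slc24a5, membrane transporters of the melanosome, named after their values were seen, with ratios of 0.363, 0.286 and 0.492. In HIOP_GSK over HIOP all 12 lay within 2-fold (median 0.29). The most abundant of the list were Trpm1, a channel of melanocytes and of retinal bipolar cells, with log2 ratios of -0.47 (HIOP over CTL) and -0.15 (HIOP_GSK over HIOP), and Gpnmb, a Pmel relative also made by macrophages, with 0.76 and 0.92. Ednrb, an endothelin receptor of melanocytes, had 0.57 and 0.18. Markers of macrophages and microglia, 4 of 5 matched and none at 0, summed to 75.2 CPM in HIOP_GSK, 22.1 in HIOP and 27.5 in CTL, and their part in the Gpnmb values was not tested.

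Retinoid genes other than the members were also compared. Of 12, 5 were at least 2-fold lower in HIOP than in CTL, beside 8.06% of all genes, with a median log2 ratio of -0.42. Only 1 of the 12 was at least 2-fold higher, a share near the background of 8.99%. The 5 lower genes, named after their values were seen, were Rrh (ratio 0.133), an opsin of pigment epithelium, Rlbp1 (0.167), a retinaldehyde carrier of pigment epithelium and Müller glia, Stra6 (0.313), the receptor for circulating retinol carrier, and the dehydrogenase genes Dhrs3 (0.451) and Rdh11 (0.490). The higher gene was Rdh10, a retinol dehydrogenase, with a ratio of 3.19 (2.95 to 3.45). Abca4 and Rbp3, photoreceptor genes that move retinoid and were the most abundant of the list, had log2 ratios of -0.13 and -0.32, well inside the limit. In HIOP_GSK over HIOP none of the 12 passed 2-fold (median 0.16, range -0.92 to 0.66). Rlbp1 had a ratio of 1.40 (1.27 to 1.54) there and Rrh one of 1.17 (0.955 to 1.42), so the interval of Rrh, like that of Rgr, held a ratio of 1.

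Of 16 other pigment epithelium genes for transport, adhesion and matrix, 7 were at least 2-fold lower in HIOP than in CTL (median log2 ratio -0.60), beside 8.06% of all genes. Only 1 of the 16 was at least 2-fold higher, a share near the background of 8.99%. The most abundant were Trpm3 (log2 ratio -0.49), an ion channel, Efemp1 (-0.37), a matrix protein, and Timp3 (-1.42), a protease inhibitor of the membrane beneath the epithelium. Krt8, an epithelial keratin, was the higher gene, with 515 counts in HIOP and 140 in CTL. It was named after its values were seen. In HIOP_GSK over HIOP 1 of the 16 was at least 2-fold higher (median 0.22), a share near the background of 4.56%. It was Cldn19, the tight junction claudin of pigment epithelium, also named after its values were seen, with 36 counts in HIOP_GSK, 16 in HIOP and 118 in CTL. Of 10 regulators, 9 were compared, and 1 was at least 2-fold lower in HIOP than in CTL, a share near the background of 8.06%. It was Lhx2, named after its values were seen, with a ratio of 0.480. Among the list's abundant genes, Pax6 had a log2 ratio of -0.50 and Sox9 one of 0.07. Mitf, the factor that binds the M-box, had 416 counts in HIOP_GSK, 463 in HIOP and 656 in CTL. Otx2, below the filter, had 0, 16 and 16 counts in HIOP_GSK, HIOP and CTL but a deposited TPM of 0 in every library. Its level was therefore not judged, and no ratio is given.

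**Figure D4:**
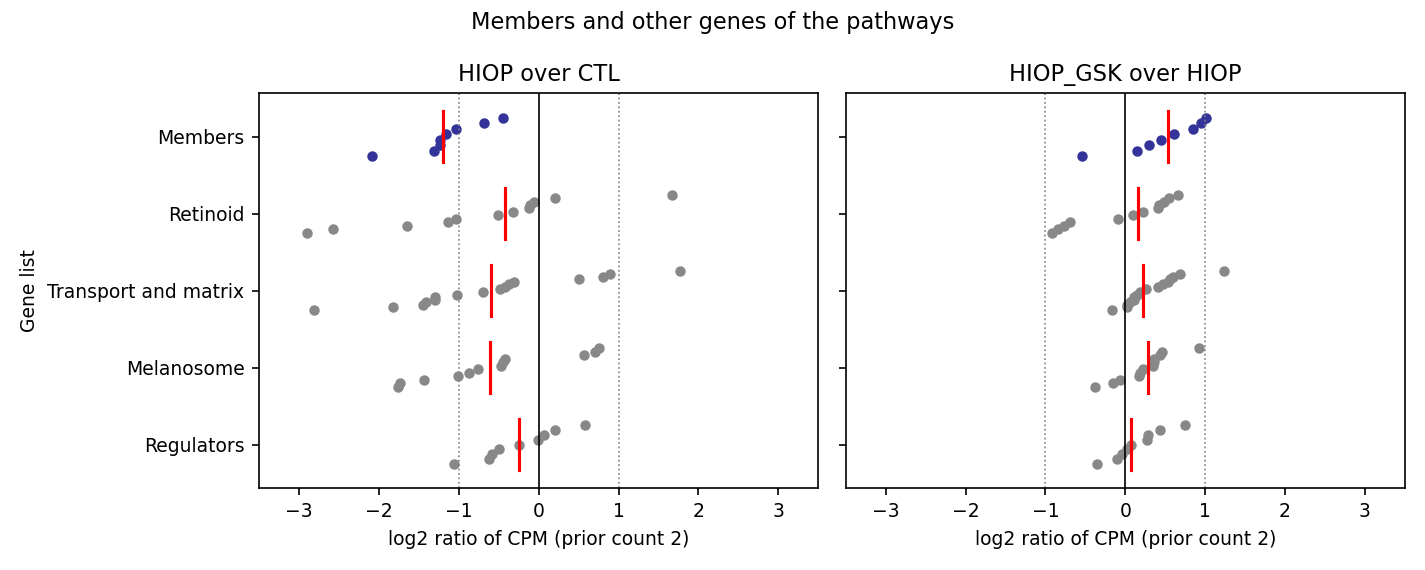
Log2 ratios of CPM (prior count 2) of the 8 compared members (blue) and of the other compared genes of 4 lists (grey), for HIOP over CTL (left) and HIOP_GSK over HIOP (right). Points are genes, red lines are list medians, and dotted lines mark 2-fold. The members have medians of -1.20 (left) and 0.53 (right).

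Among 12055 other genes with at least 50 counts in every library, those most like Rpe65 in both log2 ratios (first HIOP over CTL, then HIOP_GSK over HIOP) were Lum, Aif1l, Gng7, Col25a1 and Gabra4, at distances of 0.07, 0.09, 0.17, 0.18 and 0.19. Rpe65 itself had log2 ratios of -2.09 and 0.95, and Lum -2.04 and 1.006. Lum is also among the choroid and sclera stroma markers given below. The nearest members were Rdh5 at 0.85, in place 128, and Lrat at 0.85, in place 131. Pmel was far away, at 2.22. Mlana, with 48 counts in HIOP, and Best1 were under the limit of 50 counts and were not placed. The likeness rests on 3 libraries and is a description.

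Markers of neighbouring tissues also differed between the libraries, and their part in the values of the members was not tested. Corneal and surface epithelium markers, 6 of 6 matched, summed to 260.3 CPM in HIOP_GSK, 223 in HIOP and 562 in CTL, with Kera at 0 in HIOP. Most of this was Pax6, which neural retina also expresses, and without it the sums were 55.3 CPM in HIOP_GSK, 12.5 in HIOP and 264 in CTL. Of the 6, 5 passed the limit downward in HIOP over CTL, beside 8.06% of all genes. In HIOP_GSK over HIOP, 4 passed it upward, beside 4.56% of all genes. Choroid and sclera stroma markers, 7 of 7 matched with Col1a2 at 0 in every library, summed to 328 CPM in HIOP_GSK, 244 in HIOP and 315 in CTL. Of the 6 compared, 2 were at least 2-fold lower in HIOP than in CTL and none higher (median log2 ratio -0.47), beside 8.06% and 8.99% of all genes. In HIOP_GSK over HIOP, 2 of these 6 were at least 2-fold higher and none lower (median 0.72), beside 4.56% and 1.69%. Ciliary body and iris markers, 6 of 7 matched and none at 0, summed to 189.9 CPM in HIOP_GSK, 195 in HIOP and 206 in CTL. Single markers of that list went both ways: in HIOP over CTL their ratios ran between 0.535 (Myoc) and 1.81 (Des), and Optc was 2.39-fold lower in HIOP_GSK than in CTL. Melanocyte markers, 6 of 6 matched and none at 0, include the members Pmel and Mlana. They summed to 173 CPM in HIOP_GSK, 203 in HIOP and 285 in CTL. Pmel made up most of each sum, at 92.4 CPM in HIOP_GSK, 135 in HIOP and 184 in CTL. The lower sum in HIOP_GSK than in HIOP followed Pmel. Ratios of HIOP_GSK to HIOP were 2.06 for Mlana, 1.35 for Kit and 1.13 for Ednrb. They were 1.14 (0.935 to 1.38) for Tyr and 0.775 (0.555 to 1.08) for Sox10. Endothelial markers, 4 of 5 matched and none at 0, summed to 354 CPM in HIOP_GSK, 326 in HIOP and 594 in CTL, most of it Kdr, and without Kdr to 37.5, 26.9 and 24.7 CPM, with CTL then the lowest. Lens markers, 7 of 7 matched and none at 0, ran differently, at 9760 CPM in HIOP_GSK, 2770 in HIOP and 1036 in CTL. Blood markers, 4 of 5 matched and none at 0, were highest in HIOP, at 138 CPM in HIOP_GSK, 292 in HIOP and 129.8 in CTL.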

How the data were processed

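Retinal RNA (3 µg a sample, Trizol) went through removal of ribosomal RNA and into strand-marking libraries, per the labels' protocols. STAR 2.5.4b, RSEM 1.3.1 and the build Rnor_6.0 are named in the submitters' processing notes, without saying what each was used for. The authors' count columns hold whole numbers per gene and were not changed. Their deposited TPM columns sum to 1e+06 and came from a separate quantification, since 17 to 19 genes a library had no count but a TPM over 1. Between 503 and 566 genes a library had 20 or more counts but a TPM of 0. The TPM columns served for comparing levels between genes and as an alternative.

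TMM scaling was done in edgeR 4.0.16 under R 4.3.3 and gave factors of 1.005 (HIOP_GSK), 0.995 (HIOP) and 1.001 (CTL). Genes reaching a CPM of 1 in any library were kept. Ratios of scaled counts carry exact intervals conditional on both counts (scipy 1.17.1). Reads here carry no molecular identifiers, so intervals cover counting error only. The functions were tested on simulated counts. All 10 members are named. Of other lists the 3 genes with most counts and Tyr are named, with exceptions marked, and the values of some genes are left out of the text. The members and lists were chosen with earlier results of these data known. Symbols come from the tables, and promoters and gene overlaps from RefSeq (GRCr8), without conversion of coordinates. Alternatives were scaling by total counts, by size factors (DESeq2 1.42.0) or after leaving out 37 mitochondrial genes and the 20 most abundant ones, log2 of TPM plus 0.5, a CPM filter of 5 or none, a prior count of 0.5 or 10, and a 1.5-fold limit.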

Additional observations from a re-analysis of the deposited data

How the results depend on the processing

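No paired analysis was possible because each group has 1 library, and for the same reason no library could be left out. Of 192 values of single members under the alternatives, none of those past 2-fold changed sign, and 5 changed their side of the 2-fold limit. These were Rpe65 in HIOP_GSK over HIOP (1.05 with the deposited TPM), Mlana in the same comparison (0.90 with a prior count of 10), and in HIOP_GSK over CTL Rdh5 (-1.04 with the TPM) and Pmel (-1.05 with the TPM and -1.003 with scaling without mitochondrial and the 20 most abundant genes). The number of members at least 2-fold higher in HIOP_GSK over HIOP was 1, beside 709 of all 15543 genes. It was 2 with the deposited TPM (538 of all genes), 0 with a prior count of 10 (481) and 4 at a 1.5-fold limit (1504). The number at least 2-fold lower in HIOP_GSK over CTL was 2, beside 982 of all 15543 genes. It was 3 with scaling without mitochondrial and the 20 most abundant genes (1014 of all genes). With the TPM it was 4 (994), and at the 1.5-fold limit 5 (2580). The number at least 2-fold lower in HIOP over CTL was 6 of 8, beside 1252 of all 15543 genes. It was 7 of 8 at the 1.5-fold limit (2733) and 6 of 9 without a filter (2113 of 21973 genes). Under the other alternatives it stayed 6 of 8. Depth limits Best1, at 11 to 15 counts, and Mlana, at 48 to 103, most.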
